A study of Mus musculus with 74 samples.

Results

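Setd2 is the gene described here, as a target of guide RNAs in lung tumours of living mice, alone and beside 15 other target genes. Its members were found by name: every tumour whose barcode carried a Setd2 guide in either of the 2 guide places of the virus. Of 378754 tumours in the series, 54085 carried one, and 51403 were used after leaving out 2149 tumours beside the guide named NE and 533 with the same guide in both places. Setd2 was 1 of 17 genes targeted.

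The study started tumours with a lentiviral pool, Lenti-U6BC-sgDbl/Cre, in which each virus carries Cre, a barcode and a pair of guides, and took the lungs after about 3 months. All mice shared the background that the labels call KT, whose alleles, among them the red reporter R26LSL-Tomato, are switched on by Cre in each infected cell. The groups were 9 KT mice with no Cas9, in which guides cannot cut, 45 KT mice with H11-Cas9, and 20 KT mice with H11-LSL-Cas9, in which, as the allele's name says, a stop must first be removed by Cre. Barcode and guides were amplified from 32 µg of lung DNA, with 1 library per mouse, and each tumour was given by its reads and its estimated cells. H11-Cas9 is present in every cell before infection and H11-LSL-Cas9 is not, while the sources used here do not give viral dose, age or sex. Loss of the protein was not measured, so "Setd2 tumours" are tumours with a Setd2 guide.

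Setd2 encodes the methyltransferase that writes the trimethyl mark on a lysine of histone H3 along the bodies of transcribed genes, a mark read by factors of splicing, transcription fidelity and DNA repair. It is a recurrently mutated tumour suppressor in human lung adenocarcinoma and in clear cell kidney cancer. In mouse models, its loss is known to speed lung tumour growth.

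Of the Setd2 tumours, 6577 carried Setd2 beside an inert guide (named safe, NT or EGFP, with no target gene; written Setd2/inert), of which KT mice held 3545, H11-Cas9 mice 2141 and H11-LSL-Cas9 mice 891. Another 38074 carried Setd2 beside 1 of the 15 partner genes and 950 carried both Setd2 guides, V1 and V2. The 2973 tumours with inert guides in both places (inert/inert) were the control. Libraries held between 37 and 11183386 reads and between 4 and 41166 tumours, and the shallowest were H11-LSL-Cas9 mice, of which 3 had fewer than 5 inert/inert tumours and entered no comparison with inert/inert. The smallest tumour listed in a mouse had 50.4 to 56.2 cells in KT, 50.1 to 105 cells in H11-Cas9 and 50.4 to 369 cells in H11-LSL-Cas9, so smaller tumours are not seen. Mouse names and the spike-in total that sets the cell scale split the groups unevenly, and no H11-LSL-Cas9 mouse shared its name letters with another group, so that for this group name letters and genotype cannot be told apart. The same holds near a spike-in total of 100000 cells, where the 5 KT mice were named SL and the 25 H11-Cas9 mice LA.

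Setd2/inert tumours were larger than inert/inert tumours in H11-Cas9 mice and not detectably so in KT or H11-LSL-Cas9 mice. Size was compared within the mouse, by subtracting the inert/inert mean of log2 cells from the Setd2/inert mean. In H11-Cas9 mice this difference ran from -0.46 to 1.64 with a median of 0.19, and it was above 0 in 34 of 45 mice. Its mean was 0.22 ± 0.05 (SE, n = 45), or 1.16-fold, with an adjusted p of 0.000204 by the sign-flip permutation test over mice, Benjamini-Hochberg adjusted over the 17 genes beside inert. Of those genes, 64.7% were called higher in H11-Cas9 mice, so a gain in size was the usual result there and not particular to Setd2.

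The KT mice, whose guides cannot cut, gave the background of this measure. Their 9 differences ran from -0.30 to 0.29 with a median of 0.16, and 7 were above 0. The mean was 0.07 ± 0.07 (SE, n = 9; adjusted p = 0.863, exact sign-flip permutation). Both groups overlapped over the whole KT range, and the H11-Cas9 mean exceeded the KT mean by 0.14 ± 0.08 (SE), which did not pass (adjusted p = 0.227, permutation of mouse labels; 23.5% of single genes passed in this comparison). The gain in size thus passed against inert/inert tumours of the same mice and did not pass against the KT mice. It was not detectable in medians, with 0.01 ± 0.05 (adjusted p = 0.897, permutation). With adaptive sampling, which takes the largest tumours of each genotype in proportion to its number in KT mice and so lets a lower tumour number count against size, it was -0.01 ± 0.08 (n = 44; adjusted p = 0.929, permutation).

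In H11-LSL-Cas9 mice the same difference ran from -0.50 to 0.39, was above 0 in 8 of 17 mice and averaged -0.02 ± 0.06 (SE, n = 17; adjusted p = 0.839, permutation). With tumours under 200 cells left out it was 0.22 ± 0.14 over 14 mice (adjusted p = 0.283, permutation), against 0.40 ± 0.08 over 39 H11-Cas9 mice. In this group 11.8% of single genes were called in either direction at all sizes. The H11-Cas9 mean exceeded the H11-LSL-Cas9 mean by 0.24 ± 0.08 (SE), with an adjusted p of 0.0317 by permutation of mouse labels, a difference that 11.8% of single genes also showed in either direction. Depth moved with this contrast: 1 read stood for a median of 7.96 cells in H11-Cas9 and 12.9 cells in H11-LSL-Cas9 mice, and its part in the result was not tested.

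**Figure D1:**
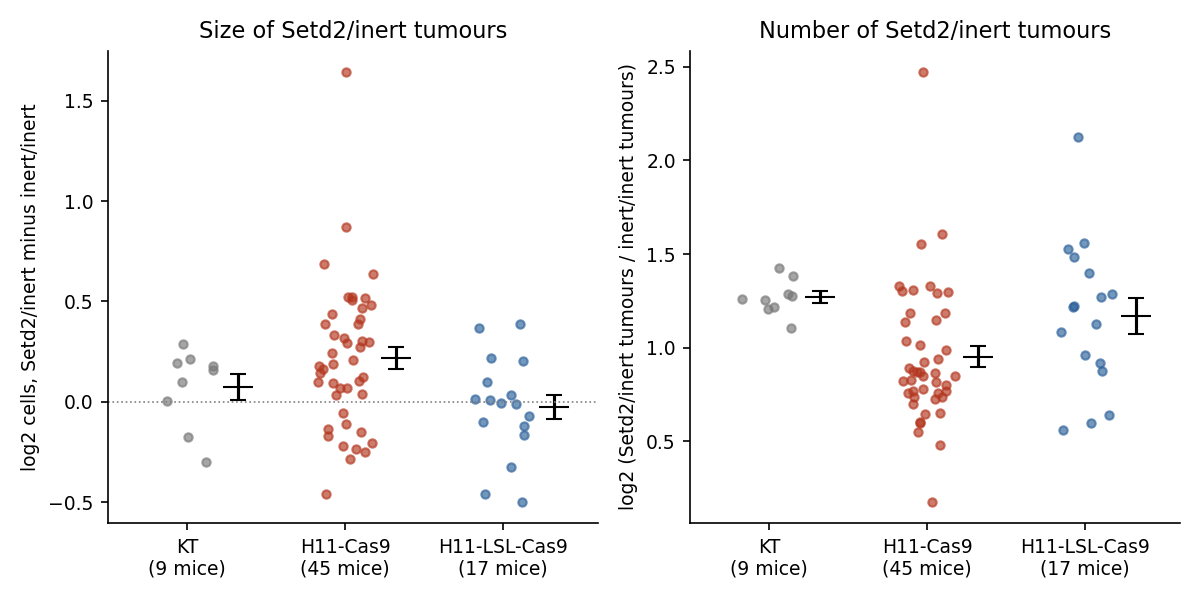
Each point is 1 mouse with at least 5 inert/inert tumours, by group on the horizontal axis. The left panel gives the log2 size difference between Setd2/inert and inert/inert tumours and the right panel the log2 ratio of their numbers, and black bars are means ± SE. H11-Cas9 points lie mostly above 0 in size, with a mean of 0.22, and lower in number than the KT points.

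The larger size of Setd2/inert tumours lay in the upper tail and not in the typical tumour. Over all tumours of the H11-Cas9 group, the median Setd2/inert tumour had 162 cells and the median inert/inert tumour 164 cells. At the 90th percentile the sizes were 892 and 655 cells, at the 95th percentile 2341 and 1112 cells, and at the 99th percentile 16609 and 3521 cells. The ratio of Setd2/inert to inert/inert size therefore went from 0.987 at the median through 1.36 and 2.11 to 4.72. In KT mice the ratio stayed between 1.05 and 1.11 over the same percentiles, and in H11-LSL-Cas9 mice it went from 0.942 at the median to 2.40 at the 99th percentile. These ratios pool tumours of different mice and carry no test.

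**Figure D2:**
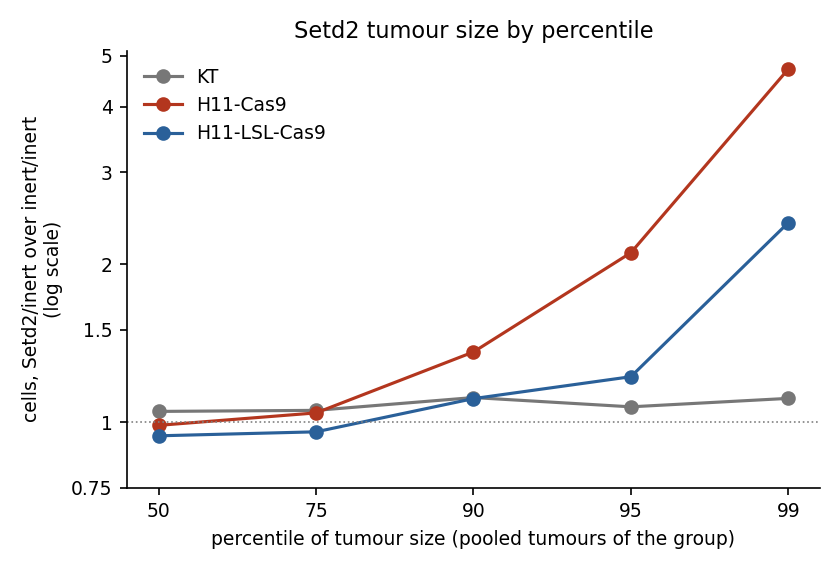
The horizontal axis gives percentiles of tumour size in each group and the vertical axis, on a log scale, the size of Setd2/inert tumours over that of inert/inert tumours at that percentile. The H11-Cas9 line leaves 1 only above the 75th percentile and reaches 4.72, while the KT line stays at or below 1.11.

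The share of large tumours was then compared mouse by mouse, with a threshold chosen after the data had been seen. In H11-Cas9 mice, 9.51% of Setd2/inert tumours and 5.42% of inert/inert tumours had at least 1000 cells, as means over mice. The difference of 4.09 ± 0.77 percentage points (SE, n = 45) was above 0 in 36 of 45 mice (adjusted p = 4.25e-05, permutation), and 64.7% of single genes were called higher. The share of at least 200 cells was 42.2% against 41.8% and differed by 0.36 ± 1.77 points (p = 0.839, permutation). For 1000 cells the difference was 1.26 ± 0.96 points in KT mice, and the H11-Cas9 difference exceeded it by 2.84 ± 1.23 points (unadjusted p = 0.0359, adjusted p = 0.081, permutation; 17.6% of single genes passed). It was 0.90 ± 1.88 points in H11-LSL-Cas9 mice, where 0% of single genes passed.

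The largest tumours were then counted. At least 10000 cells were reached by 33 of 2141 Setd2/inert tumours in H11-Cas9 mice, by 7 of 891 in H11-LSL-Cas9 and by 11 of 3545 in KT. The largest of them had 187762 cells. Of inert/inert tumours, 0 of 1107 in H11-Cas9 mice reached that size, which allows a share of up to 0.271%, 0 of 400 in H11-LSL-Cas9, which allows up to 0.75%, and 1 of 1466 in KT. These limits cover counting error only. As means over KT mice, the shares were 0.313% for Setd2/inert and 0.0365% for inert/inert. Their difference was above 0 in 6 of 9 mice (unadjusted p = 0.031, adjusted p = 0.266, exact sign-flip permutation). The H11-Cas9 difference exceeded it by 1.42 ± 0.38 points and did not pass (adjusted p = 0.0538, permutation of mouse labels; 17.6% of single genes passed). Within H11-Cas9 mice 52.9% of single genes were called higher than inert/inert. With 0 of 1107 inert/inert tumours at that size, no such difference could be below 0, so these calls rest on how many mice held such a tumour. The 33 tumours came from 20 of 45 mice, with at most 4 in 1 mouse, 17 carried guide V1 and 16 carried guide V2, so they were spread over mice and guides.

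The Setd2 guides did not differ detectably in size in H11-Cas9 mice. Guide V1 averaged 0.21 ± 0.06 log2 above inert/inert and guide V2 0.23 ± 0.07 (SE, n = 45 each), and they differed by -0.01 ± 0.08 (adjusted p = 0.945, permutation). Setd2 in place 1 gave 0.22 ± 0.05 and in place 2 gave 0.23 ± 0.10, also without a detectable difference (adjusted p = 0.945, permutation). Beside safe V1 the gain was 0.22 ± 0.06 (45 mice, unadjusted p = 0.00023) and beside safe V2 0.10 ± 0.07 (42 mice, 0.17), by permutation. Beside NT it was 0.19 ± 0.13 (13 mice, 0.177) and beside EGFP 0.22 ± 0.23 (8 mice, 0.5), by permutation. Safe V3 gave -0.44 in 1 mouse, and differences between inert guides were not tested. The virus with both Setd2 guides gave 0.22 ± 0.16 over the 22 mice with enough of its tumours (p = 0.188, permutation), a wider error that neither separates it from 0 nor from Setd2/inert.

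Among the 16 single genes described here, Setd2/inert stood 7th in mean size in H11-Cas9 mice. Above it were Nf1, p53, Ccnl1, Lkb1, Rasa1 and Meaf6. Set against the other genes in the same mice, Setd2/inert tumours were smaller than those of Nf1, a GTPase-activating protein, by -0.21 ± 0.05 log2 (adjusted p = 0.0009). They were larger than those of Keap1, the inhibitor of NRF2, by 0.18 ± 0.05 (adjusted p = 0.0127), and than those of Pcna, the replication clamp that dividing cells need, by 0.51 ± 0.13 over 13 mice (adjusted p = 0.0208). The other 12 differences did not pass this permutation test, so that the order among these neighbours is not resolved.

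Beside partner genes, Setd2 tumours were larger than inert/inert tumours for 5 of the 14 partners with enough tumours in H11-Cas9 mice, and smaller for none (Meaf6, the 15th, had 50 tumours with Setd2 and could not be tested). All pairs in the table set the background, of which 35.8% were called higher, so the count for Setd2 lies at that level. The median pair with Setd2 differed from inert/inert by 0.21 log2 and the median of all 106 pairs tested by 0.18. In KT mice 0 of 15 Setd2 pairs were called, and in H11-LSL-Cas9 mice 0 of 14, against 2.73% of all pairs called higher there.

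The GTPase-activating proteins, Nf1 and Rasa1, which restrain growth factor signalling, were both among the called partners. Setd2/Rasa1 differences ran from -0.33 to 1.67 with a median of 0.32, were above 0 in 38 of 45 mice and averaged 0.41 ± 0.06 (SE; adjusted p = 5.3e-05, permutation). This pair, 1.33-fold above inert/inert, was the Setd2 pair that also differed from KT mice, by 0.36 ± 0.09 (adjusted p = 0.0182, permutation; 18.3% of all pairs were called higher than in KT). It likewise exceeded the H11-LSL-Cas9 mice, where it averaged 0.00 ± 0.07, by 0.41 ± 0.10 (adjusted p = 0.00392, permutation; 2.04% of all pairs passed in either direction). Setd2/Nf1 differences had a median of 0.33, were above 0 in 37 of 45 mice and averaged 0.38 ± 0.07 (adjusted p = 5.3e-05, permutation).

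Lkb1, a kinase that restrains growth through AMPK-related kinases, gave the highest mean with Setd2 and the widest spread. Setd2/Lkb1 differences ran from -0.86 to 2.94 around a median of 0.15 and averaged 0.47 ± 0.15 (SE, n = 44; adjusted p = 0.00614, permutation). The value differed between parts of the group. It was 0.89 ± 0.23 in the 24 mice whose spike-in total lay near 100000 cells and -0.02 ± 0.09 in the 20 mice near 300000 cells, and Lkb1/inert split alike, with 0.45 ± 0.14 and 0.04 ± 0.09. Setd2/inert itself did not split in this way, with 0.22 ± 0.08 and 0.21 ± 0.06.

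Rnf43, a ligase that removes Wnt receptors, and p53, the stress-activated tumour suppressor, completed the called pairs. Setd2/Rnf43 averaged 0.30 ± 0.08 (above 0 in 32 of 45 mice; adjusted p = 5.3e-05, permutation) and Setd2/p53 0.28 ± 0.06 (37 of 45 mice; adjusted p = 0.000145, permutation). The pairs with Rb1, the cell cycle gatekeeper, Apc, a scaffold of the complex that degrades beta-catenin, and Keap1 averaged 0.16 ± 0.09, 0.18 ± 0.10 and 0.19 ± 0.10 and did not pass. At the low end, Setd2/Pcna lay below inert/inert in all of the 6 mice with a value, from -1.49 to -0.10, with a mean of -0.54 ± 0.23 and an adjusted p of 0.0705 by the exact permutation test.

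The chromatin partners were too rare to measure well. Setd2 with Kmt2b, a histone H3 lysine methyltransferase like Kmt2a, averaged 0.39 ± 0.15 over 6 mice (adjusted p = 0.127, exact permutation). With Kmt2a it averaged 0.03 ± 0.17 over 14 mice and with Kat7, a histone acetyltransferase, -0.06 ± 0.24 over 11 mice. The cyclins L, which work with splicing-linked kinases, gave 0.22 ± 0.16 for Ccnl1 (17 mice) and -0.06 ± 0.09 for Ccnl2 (38 mice). None of these passed.

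**Figure D3:**
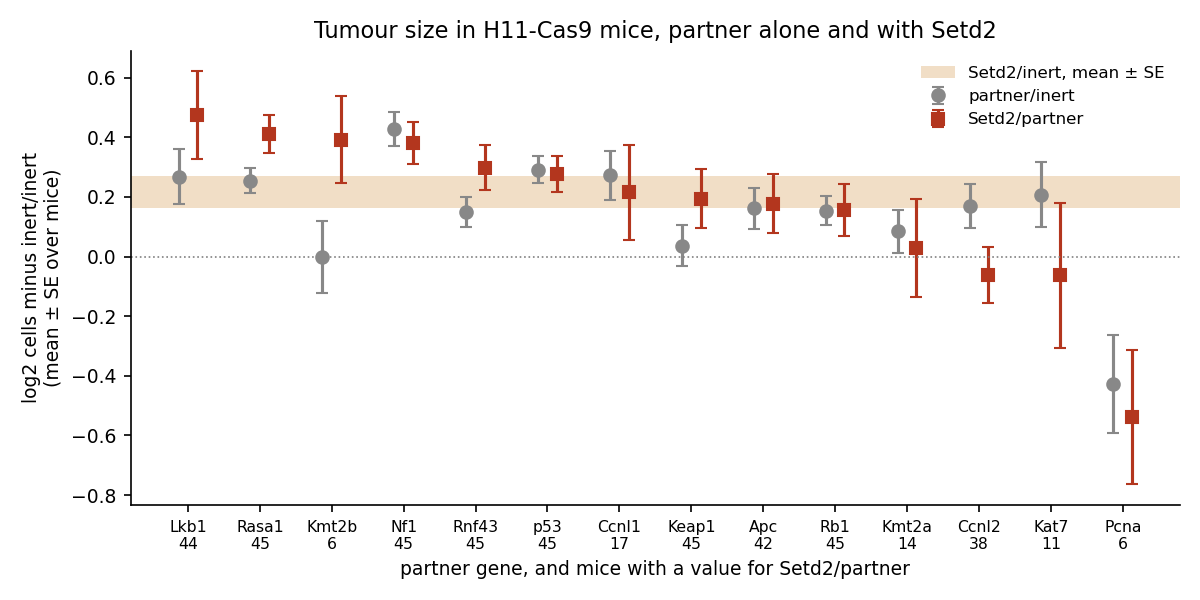
For each partner gene, with the number of mice under its name, the grey circle gives the size of partner/inert tumours and the red square that of Setd2/partner tumours, as log2 cells minus inert/inert (mean ± SE over H11-Cas9 mice). The band is Setd2/inert at 0.22 ± 0.05. The 5 squares whose pairs were called are Lkb1, Rasa1, Nf1, Rnf43 and p53.

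Adding Setd2 to a partner did not change mean size past the threshold for any partner. The step, Setd2/partner minus partner/inert in the same mouse, had a median of 0.01 over 14 partners in H11-Cas9 mice, against -0.01 over all 212 steps, and 0 of 14 passed, where 11.8% of all steps did in either direction. At an unadjusted p under 0.05 there were 2, Rasa1 (0.16 ± 0.06, above 0 in 32 of 45 mice, adjusted p = 0.0682) and Rnf43 (0.15 ± 0.06, 32 of 45 mice, adjusted p = 0.0901), by the permutation test. Both steps passed when tumours under 200 cells were left out, at 0.40 ± 0.10 and 0.31 ± 0.09 (adjusted p = 0.00306 and 0.00962, permutation). Against KT mice 0 of 14 steps passed (4.43% of all steps), and in H11-LSL-Cas9 mice 0 of 14 (2.76%).

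Read in the other order, adding Nf1 to Setd2 raised size by 0.16 ± 0.05 (29 of 45 mice; adjusted p = 0.0322, permutation) and adding Rasa1 raised it by 0.19 ± 0.06 (29 of 45 mice; adjusted p = 0.026, permutation). These were 2 of the 14 steps tested from Setd2, where 11.8% of all steps passed. Neither passed with tumours of at least 200 cells (0.22 and 0.23), by medians (0.12 and 0.17), or when the group was split at its spike-in totals, near 100000 cells (0.21 and 0.26) and near 300000 cells (0.11 and 0.12), where the adjusted p lay between 0.0686 and 0.54 by permutation.

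In H11-Cas9 mice, size in pairs fell short of the product of the single effects for Nf1, p53 and Ccnl2. The interaction, the pair minus the sum of both single differences in the same mouse, was -0.26 ± 0.07 for Nf1 (below 0 in 33 of 45 mice, adjusted p = 0.00901), -0.23 ± 0.08 for p53 (31 of 45 mice, adjusted p = 0.0161) and -0.39 ± 0.12 for Ccnl2 (28 of 38 mice, adjusted p = 0.0131), by the permutation test. None of the 3 passed with tumours of at least 200 cells (adjusted p = 0.293, 0.137 and 0.574), by medians (0.523, 0.712 and 0.629) or near a spike-in total of 300000 cells (0.428, 0.693 and 0.385), by permutation. With at least 10 tumours a genotype, Ccnl2 was -0.10 ± 0.13 over 16 mice (adjusted p = 0.587, permutation). The count of 3 of 14 stands beside the table as a whole, in which 20.8% of interactions were called lower and the median of 106 was -0.21, against -0.19 for Setd2. Against KT mice 0 of 14 Setd2 interactions passed (2.02% of all), and in H11-LSL-Cas9 mice 0 of 14 (0% of all). In each of these comparisons 2 of 14 had an unadjusted p under 0.05, by permutation, but in opposite directions. Against KT mice they lay below 0, with Nf1 at -0.34 ± 0.10 and p53 at -0.26 ± 0.11. In H11-LSL-Cas9 mice they lay above 0, with Lkb1 at 0.35 ± 0.11 (15 of 17 mice) and Rnf43 at 0.25 ± 0.12 (12 of 17 mice). Of the H11-LSL-Cas9 interactions 8 of 14 were above 0 and 6 below, with a median of 0.06. Each pair shares the inert/inert, Setd2/inert and partner/inert tumours of its mouse, so its interaction is not independent of the steps above.

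The share of large tumours was also compared for the pairs. Of Setd2 pairs in H11-Cas9 mice, 8 of 14 had a larger share of tumours of at least 1000 cells than inert/inert, where 43.4% of all pairs did. They were the pairs with Rasa1, Lkb1, Nf1, p53, Keap1, Rnf43, Apc and Rb1, with differences of 6.76, 5.50, 5.49, 4.52, 4.28, 3.95, 3.85 and 3.47 percentage points. With a threshold of 500 cells, or near a spike-in total of 300000 cells, 4 passed, in each case Nf1, Rasa1, Rnf43 and p53. Adding Setd2 to a partner changed that share for 0 of 14 partners (4.72% of all steps), with 1 at an unadjusted p under 0.05. In H11-LSL-Cas9 mice 0 of 14 pairs passed, where 0.909% of all pairs were called higher, with 3 at an unadjusted p under 0.05.

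At 10000 cells, another threshold chosen after the data had been seen, adding Setd2 did raise the share of tumours for 3 of 14 partners in H11-Cas9 mice, where 10.4% of all steps were called higher. With Keap1, 34 of 885 Setd2/Keap1 tumours and 7 of 1464 Keap1/inert tumours reached that size, and the mean over mice rose from 0.457% to 3.69%, by 3.24 ± 0.95 percentage points (adjusted p = 0.00424). With Rasa1, 37 of 1521 and 14 of 2604 did, a rise of 2.02 ± 0.60 points (adjusted p = 0.0105). With Rnf43, 47 of 1533 and 24 of 2537 did, a rise of 2.20 ± 0.80 points (adjusted p = 0.0293), all by the sign-flip permutation test over 45 mice. Within the mice of 1 spike-in total, the Keap1 call remained near 100000 cells, none of the 3 remained near 300000 cells (Keap1 1.92, Rasa1 1.84 and Rnf43 1.14 points), and with a threshold of 5000 cells the Keap1 step was 2.44 ± 1.08 points (adjusted p = 0.156, permutation).

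The steps of the other partners at 10000 cells pointed mostly the same way without passing. The step was above 0 for 13 of 14 partners in H11-Cas9 mice, with a median of 1.39 points against 0.20 over all steps, and below 0 for Pcna, at -2.50 ± 2.50 over 5 mice. For 3 of them, Kat7, Kmt2a and Kmt2b, no partner/inert tumour of the mice tested reached 10000 cells, so the step could not be below 0, and of the other 11 it was above 0 for 10, with a median of 1.26 points. Nf1 and p53 gave 1.26 ± 0.47 and 0.96 ± 0.35 points (adjusted p = 0.0636 and 0.0555, permutation). The Setd2/Lkb1 pair had the highest share of the common pairs, 43 of 638 tumours against 46 of 1021 for Lkb1/inert, and its largest tumour had 1801490 cells, but its step of 1.99 ± 1.61 points did not pass. Read from Setd2, adding Lkb1 raised the share by 4.84 ± 1.45 points, from 1.73% to 6.57% (adjusted p = 0.0104, permutation, n = 44). It was the only partner to pass in this order, where 10.4% of all steps were called higher. Nf1 gave 1.66 ± 0.63 and Keap1 2.00 ± 0.89 points (adjusted p = 0.0639 and 0.128, permutation). Whether the Lkb1 call holds within the mice of 1 spike-in total was not tested. In H11-LSL-Cas9 mice the step was above 0 for 12 of 14 partners, with a median of 2.08 points, and 0 passed (1.38% of all steps were called higher), with Rnf43 at 2.43 ± 0.76 (adjusted p = 0.067) and Keap1 at 2.12 ± 0.85 (adjusted p = 0.245), by permutation. There 5 partners (Ccnl1, Ccnl2, Kat7, Kmt2b and Pcna) had no partner/inert tumour of that size in the mice tested, and the other 9 of 9 lay above 0. Against inert/inert, this share was called higher for the H11-LSL-Cas9 pairs with Lkb1, Nf1, Keap1, Apc and Rnf43. The differences were 4.90, 3.47, 3.18, 3.11 and 2.14 points (adjusted p = 0.0177 to 0.0394, permutation), where 20.9% of all pairs were called higher. With 0 of 400 inert/inert tumours at that size, which allows up to 0.75%, no difference could be below 0. The p-value there is set by how many mice held such a pair tumour, so these calls are not evidence of a rise over inert/inert. In KT mice the step was above 0 for 6 and below 0 for 7 of 15 partners, and for 5 and 7 of the 12 partners with a tumour of that size beside inert. The H11-Cas9 steps exceeded those of KT by 3.25, 2.05 and 2.37 points for Keap1, Rasa1 and Rnf43, with adjusted p = 0.122, 0.122 and 0.129, so none passed this comparison (1.97% of all steps did).

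**Figure D4:**
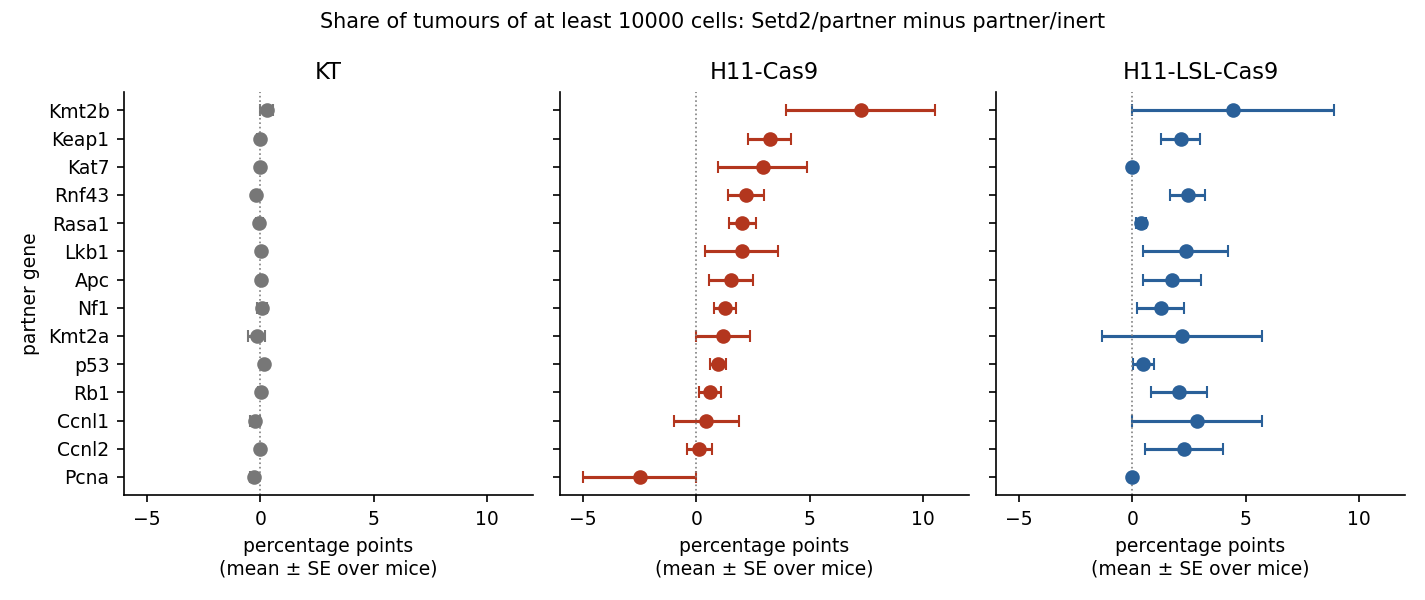
The horizontal axis gives the change in the share of tumours of at least 10000 cells when Setd2 is added to a partner, in percentage points (mean ± SE over mice), and each row is a partner gene. KT points lie close to 0, while 13 of 14 points in H11-Cas9 and 12 of 14 in H11-LSL-Cas9 mice lie above it, of which 3 and 3 could not lie below it because the partner's own share was 0.

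Relative to inert/inert, Setd2/inert tumours were fewer in H11-Cas9 than in KT mice. Number was taken as log2 of Setd2/inert tumours over inert/inert tumours in the same mouse and compared with KT mice, whose ratio shows how common each construct is in the pool. The ratio itself ran from 2.15 to 2.69 in KT mice, with a median of 2.40, from 1.13 to 6 in H11-Cas9, with a median of 1.83, and from 1.48 to 4.56 in H11-LSL-Cas9, with a median of 2.34. The groups overlapped, and 36 of 45 H11-Cas9 mice lay below the KT mean. The mean log2 ratio of H11-Cas9 mice minus that of KT mice was -0.32 ± 0.06 (SE, 45 and 9 mice), or 0.803-fold, with an adjusted p of 0.0379 by permutation of mouse labels, and 35.3% of single genes were called lower.

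This number difference depended on its reference and on single KT mice. Leaving out 1 KT mouse at a time gave differences of -0.34 to -0.30 and adjusted p-values of 0.0444 to 0.0771, over the threshold without mouse 2, 3, 5, 6, 7 or 8. With all KT mice and the difference divided by its standard error before labels were permuted, the adjusted p was 0.000276. Among mice of like spike-in totals it was -0.35 ± 0.10 near 100000 cells (adjusted p = 0.196) and -0.27 ± 0.06 near 300000 cells (adjusted p = 0.126), by permutation, with fewer mice in each. Near 100000 cells the KT and H11-Cas9 mice shared no name letters. With all tumours of the mouse as reference in place of inert/inert, the difference was 0.10 ± 0.04 (adjusted p = 0.15, permutation). In H11-LSL-Cas9 mice the difference from KT was -0.10 ± 0.10 (17 and 9 mice; adjusted p = 0.617, permutation; 17.6% of single genes were called lower). The 2 Cas9 groups differed by -0.22 ± 0.11 (adjusted p = 0.139, permutation; 23.5% of single genes passed in either direction).

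Place changed the number where it had not changed the size. In H11-Cas9 mice against KT, Setd2 in place 1 gave -0.17 ± 0.06 and Setd2 in place 2 gave -0.54 ± 0.08, and the difference of 0.37 ± 0.07 passed (adjusted p = 0.00444, permutation of mouse labels). In H11-LSL-Cas9 mice this difference was 0.26 ± 0.11 (adjusted p = 0.135, permutation). The value in H11-Cas9 mice also varied, as measured, with the inert guide beside Setd2, and the differences between inert guides were not tested. It was -0.24 ± 0.08 beside safe V1 (unadjusted p = 0.105), -0.61 ± 0.12 beside safe V2 (0.0273) and -0.25 ± 0.23 beside safe V3 (0.429). Beside NT it was -0.50 ± 0.20 (0.225) and beside EGFP -0.03 ± 0.17 (0.914), all by permutation. The Setd2 guides did not differ detectably in H11-Cas9 mice, with -0.27 ± 0.07 for V1 and -0.38 ± 0.08 for V2 (adjusted p = 0.456, permutation). Tumours with both Setd2 guides were fewer still, by -0.95 ± 0.15 over inert/inert and by -0.63 ± 0.14 over Setd2/inert in H11-Cas9 against KT mice (unadjusted p = 0.00265 and 0.0247, permutation). In H11-LSL-Cas9 against KT mice the same values were -0.09 ± 0.15 and 0.010 ± 0.16 (unadjusted p = 0.634 and 0.962, permutation).

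Beside partners, 10 of 15 Setd2 pairs were fewer in H11-Cas9 than in KT mice, where 47.1% of all pairs were called lower. The median was -0.61 log2 for Setd2 pairs and -0.56 for all pairs. The lowest was Setd2/Pcna at -4.31 ± 0.19, followed by Lkb1 at -1.41 ± 0.10, Kmt2b at -1.29 ± 0.16, Keap1 at -1.28 ± 0.08 and Apc at -1.05 ± 0.09. Meaf6, Kat7, Kmt2a, Rb1 and Rnf43 were the others, from -0.98 for Meaf6 to -0.34 for Rnf43. The pairs with Nf1 (0.02 ± 0.08), Rasa1 (-0.08 ± 0.09), p53 (-0.15 ± 0.07), Ccnl1 (-0.18 ± 0.14) and Ccnl2 (-0.14 ± 0.13) did not pass. In H11-LSL-Cas9 mice 3 of 15 pairs were fewer than in KT, with Pcna (-1.78 ± 0.13), Lkb1 (-0.57 ± 0.14) and Keap1 (-0.48 ± 0.09), where 19.1% of all pairs were. Both comparisons share the 9 KT mice.

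Adding Setd2 to a partner lowered number in H11-Cas9 mice for each of the 15 partners as measured, and past the threshold for 3. The step, log2 of Setd2/partner over partner/inert tumours, H11-Cas9 minus KT, does not use the inert/inert number, and all 15 steps share the 9 KT mice. Its median was -0.30 over the 15 partners and -0.07 over all 272 steps, of which 22.1% were called lower. It was -0.38 ± 0.05 for p53 (adjusted p = 8e-05; below the KT mean in 43 of 45 mice), -0.39 ± 0.07 for Nf1 (adjusted p = 0.00572; 41 of 45) and -0.41 ± 0.08 for Rb1 (adjusted p = 0.034; 39 of 45), by permutation of mouse labels. The Rb1 step lost its call without KT mouse 1, 2, 3, 4 or 7, where its adjusted p reached 0.0696, while those of p53 and Nf1 kept theirs without any KT mouse. When the difference was divided by its standard error before permuting, 9 of 15 steps passed, with Apc, Keap1, Kmt2a, Lkb1, Rasa1 and Rnf43 added, where 33.8% of all steps did. Even so, the numbers of the pairs stood near the product of the single effects: 0 of 15 interactions in number passed in H11-Cas9 mice (7.35% of all) or H11-LSL-Cas9 mice (0% of all), with 0 of 15 at an unadjusted p under 0.05 in each group.

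In H11-LSL-Cas9 mice the step of adding Setd2 was below 0 for 11 of 15 partners, with a median of -0.04. Only p53 passed there, at -0.24 ± 0.07 (adjusted p = 0.0389, permutation; 8.46% of all steps were called lower), and not without KT mouse 1, 2, 3, 4, 6, 7 or 9. Tested directly between the Cas9 groups, 3 of 15 steps were lower in H11-Cas9 mice, with Rb1 (-0.52 ± 0.10, adjusted p = 0.00013), Kmt2b (-0.64 ± 0.21, adjusted p = 0.0239) and Keap1 (-0.30 ± 0.11, adjusted p = 0.0451), by permutation. In this comparison 24.6% of all steps passed in either direction. Of the pairs, 7 of 15 were fewer in H11-Cas9 than in H11-LSL-Cas9 mice, where 44.1% of all pairs were called lower. They were Pcna (-2.53), Kmt2b (-1.11), Lkb1 (-0.84), Keap1 (-0.80), Apc (-0.69), Kmt2a (-0.55) and Rb1 (-0.33).

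**Figure D5:**
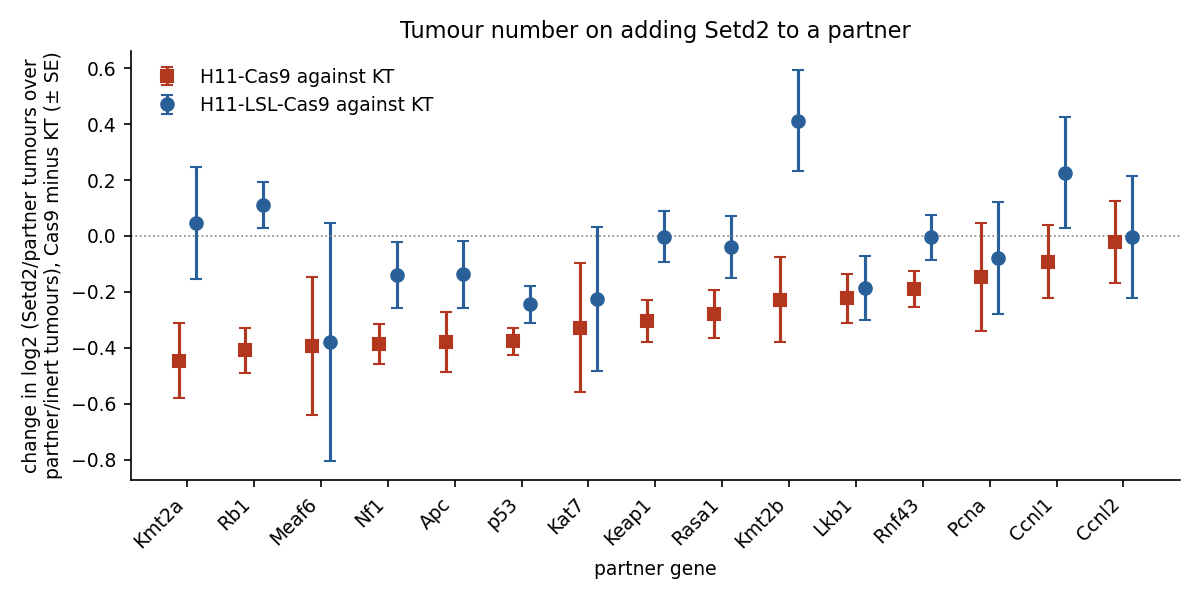
For each partner gene on the horizontal axis, the vertical axis gives the change in log2 of Setd2/partner over partner/inert tumour number, Cas9 mice minus KT mice (± SE). The H11-Cas9 squares lie below 0 for 15 of 15 partners, with a median of -0.30, and the H11-LSL-Cas9 circles below 0 for 11 of 15.

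By correlation over shared partners, the genes whose pair values were most like those of Setd2 in H11-Cas9 mice were, in size, Rnf43 (Pearson r = 0.849 over 13 partners), Keap1 (0.662) and Rasa1 (0.64). In number they were Nf1 (0.995 over 14 partners), Rnf43 (0.992) and Rasa1 (0.989). These correlations run across partners that share mice and inert/inert tumours, and in number Pcna lay far below the other partners. A high correlation did not mean a like level: in number, the median absolute difference from Setd2 was 0.66 log2 for Nf1, 0.26 for Rnf43 and 0.50 for Rasa1, against 0.19 for Apc and 0.25 for Rb1. In size it was 0.12 for Rnf43, 0.25 for Keap1 and 0.13 for Rasa1.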

How the data were processed

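Per the labels, each sample is the lung of 1 mouse. The authors deposited 2 values per tumour: raw read counts, and a cell estimate, a signal that they scaled with spike-in barcodes. The aligner and build are not stated in the labels or headers. Guide names gave the genes, and the order of the guides was ignored.

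Tests ran over mice, on all 17 genes of the table, with 2-sided permutations (exact up to 16 mice, otherwise 100000 resamples, whose smallest p is 1e-05) and Benjamini-Hochberg adjustment over all genotypes of a kind; an adjusted p under 0.05 was a call. Comparisons of Setd2/inert with other single genes were an exception, adjusted over the 15 partner genes described here. Those between Setd2 guides and between places were adjusted only among themselves. Size values needed at least 5 tumours of each genotype in a mouse. Numbers had 0.5 added and needed 5 inert/inert tumours. Size differences between groups were divided by their standard error before labels were permuted, number differences only in an alternative.

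Setd2 pairs past the threshold in the main tests of size and number are named, and pairs that only an alternative called are mostly counted. The gene, the partners and the alternatives were chosen with earlier results of these data known. The shares of tumours of at least 1000 or 10000 cells were added after the data were seen. The single-gene tests of mean size and number were tried on simulated tumours with normally spread log2 sizes. Shares, pairs, steps and interactions were not tried in this way. Python 3.11.15, numpy 2.4.6, pandas 2.3.3 and matplotlib 3.10.9 were used. Some results are not reported here.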

Additional observations from a re-analysis of the deposited data

Results flagged for a closer look

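Values that differed between the Cas9 groups by the permutation test of the difference itself were marked. In size, H11-Cas9 exceeded H11-LSL-Cas9 by 0.24 for Setd2/inert and by 0.41 for Setd2/Rasa1.

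In number, H11-Cas9 lay below H11-LSL-Cas9 for 7 pairs, by -2.53 for Pcna, -1.11 for Kmt2b, -0.84 for Lkb1, -0.80 for Keap1, -0.69 for Apc, -0.55 for Kmt2a and -0.33 for Rb1. The step of adding Setd2 was lower by -0.64 for Kmt2b, -0.52 for Rb1 and -0.30 for Keap1.

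Of 37 sets of 4 to 10 mice looked at for a mouse far from the others, 0 had one, where chance gives about 1 in 20.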

How the results depend on the processing

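Of 242 alternatives to the values that answer a comparison, 190 kept the direction and the side of the threshold, or the count within 1.5 times. The cause of the changes was not tested. Size of Setd2/inert in H11-Cas9 mice was 0.010 by medians, -0.0074 with adaptive sampling and 0.14 as a difference from KT. The count of larger pairs, 5, became 8 with tumours of at least 200 cells, 0 by medians and 8 with same-guide constructs kept, and Setd2/Lkb1 was -0.023 near a spike-in total of 300000 cells. The count of size steps, 0, became 2 at 200 cells and 1 with at least 10 tumours. The 3 size interactions became 1 at 200 cells (Rb1, none of the 3), 0 by medians, 5 with same-guide constructs, 0 near 300000 cells and 0 as a difference from KT. In H11-LSL-Cas9 mice the 0 larger pairs became 4 at 200 cells, 1 with 10 tumours and 1 with same-guide constructs, and the 0 steps became 1 with 10 tumours.

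For shares of large tumours, all alternatives were chosen after seeing the data. The 8 pairs became 4 at 500 cells and 4 near 300000 cells, and the 0 steps became 1 at 2000 cells. In H11-LSL-Cas9 mice, pairs and steps went from 0 to 5 and 1 at 2000 cells. The 3 steps at 10000 cells became 5 at 20000 cells, 1 near 100000 cells and 0 near 300000 cells, and in H11-LSL-Cas9 mice the 0 became 1 at 5000 cells.

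The number of Setd2/inert tumours in H11-Cas9 against KT mice was -0.38 at 200 cells, -0.35 near 100000 cells, -0.27 near 300000 cells, -0.27 for guide V1, -0.17 for place 1, 0.10 relative to all tumours and -0.34 to -0.30 without 1 KT mouse. The 10 pairs became 5 at 200 cells and 6 near 300000 cells, and the 3 steps became 9 with the difference over its standard error and 1 near 100000 cells. In H11-LSL-Cas9 mice the 3 pairs became 1 near 300000 cells, and the 1 step became 0 at 200 cells, 0 near 300000 cells and 0 to 1 without 1 KT mouse. No paired analysis was possible because replicate numbers were given in accession order and pair no mice.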
